A study of Mus musculus with 4 samples.

Results

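The genes described here are those of cholesterol synthesis and of the lipoprotein system that moves cholesterol between cells: 37 genes chosen by symbol from a list, out of 13289 genes in the deposited count table of the embryonic mouse cortex. All 37 were present and all 37 passed the filter on low counts. They were ordered by role into 18 synthesis enzymes, 5 genes that control the sterol response, 3 uptake receptors, 4 efflux and carrier genes, and 7 genes of intracellular handling and oxysterol sensing. The list was made with earlier results of these data known, so member counts are read only against the share of all genes tested.

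Polyadenylated RNA was sequenced from fresh cerebral cortex at embryonic day 15, in 2 libraries titled WT (called control here) and 2 titled Lhx2cKO (called Lhx2 cKO here). Lhx2 encodes a LIM-homeodomain transcription factor of cortical progenitors, and cKO is read as conditional knockout. The labels give no Cre driver, floxed allele, strain, litter or sex, and do not say whether a library is 1 embryo or a pool, so p-values measure the spread between these libraries, which may be technical. Library totals ranged from 22294237 to 24609627 counts. Levels are in CPM, that is counts scaled to library size with TMM factors, and a level per length is CPM per kilobase of the deposited gene length. Lhx2 itself was at 316 and 287 CPM in control and at 239 and 247 CPM in Lhx2 cKO, a log2 fold change of -0.31 with SE 0.098 (adjusted p 0.0191 in edgeR). Its call was lost without control 1, Lhx2 cKO 1 or Lhx2 cKO 2 (adjusted p 0.176, 0.102 and 0.0538). Which exons the deletion removes is not given, so counts over the whole gene can hold reads from outside it. All 6 cortex markers tested, Emx1, Emx2, Neurod6, Tbr1 and Lhx2 among them, were detected in every library, and 5 of them fell, from 2341 and 2304 CPM summed in control to 1876 and 1872 CPM. Mitochondrial genes took 10.02 to 12.85% of counts, with overlapping groups. Of the 10 marker lists of cell types and states used, 5 of 6 oligodendrocyte precursor markers, 7 of 9 astrocyte and late glia markers, 11 of 12 microglia and macrophage markers and 5 of 9 endothelium and pericyte markers rose (1 fell), and 9 of 10 cell cycle markers fell. Called higher and lower were 2 and 1 of 10 neuron markers, 1 and 1 of 5 meninges and fibroblast markers, and 1 and 5 of 7 red blood cell markers. The meninges and fibroblast marker called higher was Pdgfra, which is also counted among the oligodendrocyte precursor markers. The marker of that list called lower was Col1a1 (log2 fold change -3.00).

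Once the blood-brain barrier has formed, plasma lipoproteins do not supply the brain, and neural cells make their own cholesterol. Acetyl-CoA is carried through mevalonate to farnesyl diphosphate and squalene, which is cyclised and trimmed to cholesterol. When membrane sterol is low, Scap escorts the Srebp proteins out of the endoplasmic reticulum and they switch on the enzymes and the lipoprotein receptors. The Insig proteins hold that complex back. When sterol is high, oxysterols bind the Lxr receptors, which switch on the exporters Abca1 and Abcg1, Apoe and Srebf1. Apoe, made by glia and microglia in the brain, carries the exported lipid to lipoprotein receptors on other cells.

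Of the 37 members, 5 rose and 3 fell in Lhx2 cKO at an adjusted p under 0.05, which is the threshold for a call throughout (edgeR's quasi-likelihood test with Benjamini-Hochberg adjustment over 13288 genes). Over all genes tested 20.8% were called, 11.6% higher and 9.17% lower. The 5 that rose were Apoe, Vldlr, Abca1, Abcg1 and Lipa, and the 3 that fell were Nr1h2, Srebf1 and Insig1. None of the 18 synthesis enzymes was called. The median log2 fold change was 0.08 over the 18 enzymes and 0.52 over the 4 efflux and carrier genes, beside 0.003 over all genes tested. For 25 of the 37 members the ranges of the groups did not overlap, against 59.3% of all genes tested. The authors' deposited table gave the same call for all 37 members, with log2 fold changes of 1.67 for Apoe and 0.65 for Vldlr.

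**Figure D1:**
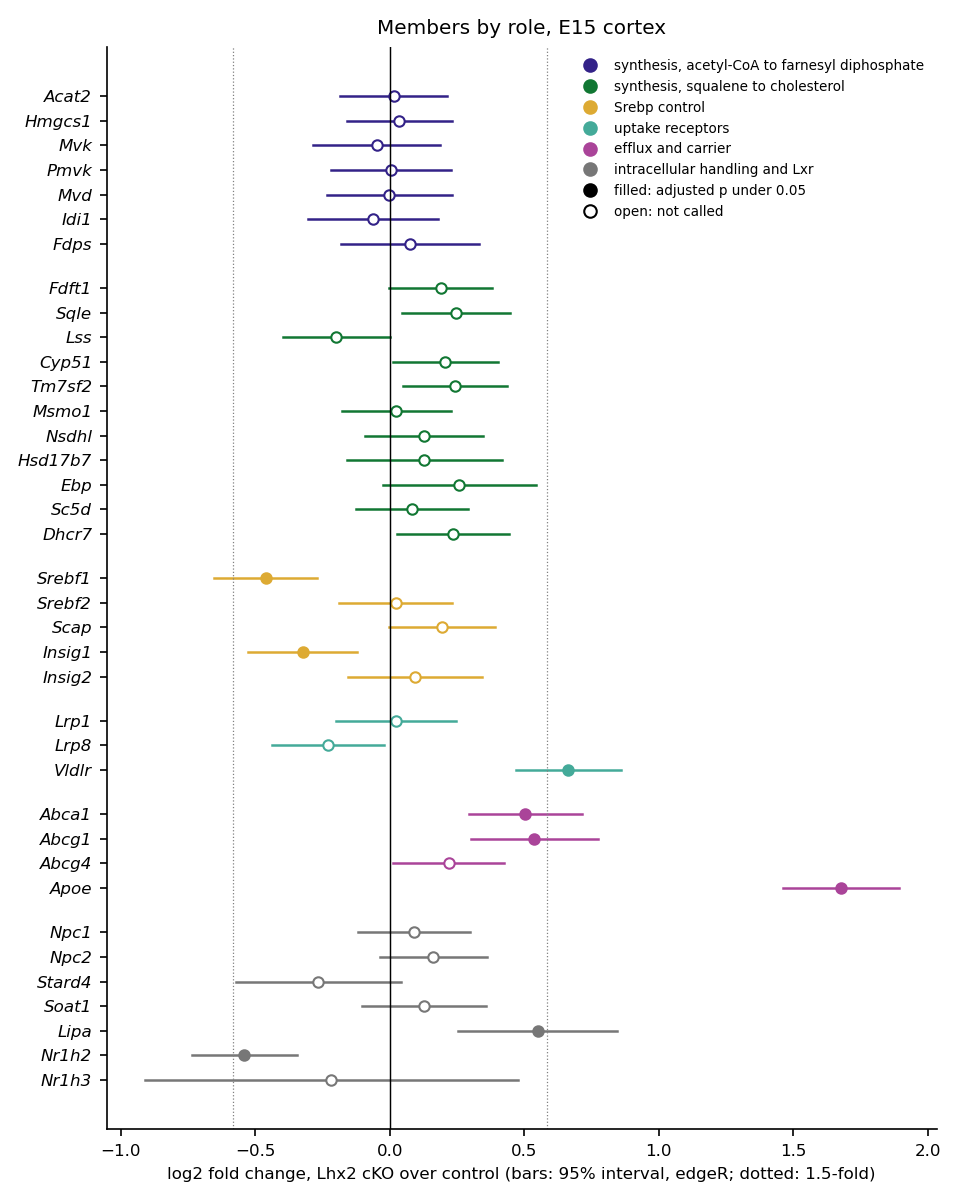
Log2 fold change of Lhx2 cKO over control for each of the 37 members, with bars for the 95% interval from edgeR, coloured by role; filled points are called and open points are not, and dotted lines mark a 1.5-fold change. All 18 synthesis enzymes are open points whose intervals stay between the dotted lines, while Apoe lies at 1.68.

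Between acetyl-CoA and farnesyl diphosphate, the 7 enzymes had log2 fold changes from -0.06 for Idi1 to 0.08 for Fdps, with a median of 0.005 and a lowest adjusted p of 0.733. Hmgcs1, which condenses acetoacetyl-CoA and acetyl-CoA to HMG-CoA, was at 189 and 213 CPM in control and at 199.8 and 212 CPM in Lhx2 cKO, so that the Lhx2 cKO values lay inside the control range. Its log2 fold change was 0.03 with a 95% interval from -0.16 to 0.23. The kinases Mvk and Pmvk and the decarboxylase Mvd, which turn mevalonate into isopentenyl diphosphate, were at -0.05, 0.005 and -0.002 on the log2 fold change scale. Groups overlapped for 6 of these 7 enzymes, and Fdps, the farnesyl diphosphate synthase, was the exception, its groups nearly touching at 21.61 and 20.49 CPM in control and 21.62 and 22.72 CPM in Lhx2 cKO.

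The 11 enzymes from squalene to cholesterol had a median log2 fold change of 0.19. Of the 11 estimates 10 were above 0, beside 50.4% of all genes tested. None passed the threshold, with a lowest adjusted p of 0.0644. Sqle, the squalene epoxidase that adds the oxygen needed for ring closure, was at 162 and 191 CPM in control and at 199 and 220 CPM in Lhx2 cKO. Both Lhx2 cKO values were above both control values, with a log2 fold change of 0.25 with SE 0.099 (adjusted p 0.0713). Sqle was called with the replicate number as a block (0.25, adjusted p 0.0408) and without control 2 (0.37, adjusted p 0.0181), and its estimate was 0.12 without control 1 (adjusted p 0.593). Tm7sf2, a sterol C14 reductase, was at 84.0 and 88.6 CPM in control and 100.03 and 104 CPM in Lhx2 cKO, a log2 fold change of 0.24 with SE 0.096 (adjusted p 0.0644).

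Dhcr7, a terminal reductase of the pathway, was at 71.5 and 77.8 CPM in control and at 78.1 and 97.5 CPM in Lhx2 cKO. Its log2 fold change was 0.23 (adjusted p 0.106). It was 0.06 without Lhx2 cKO 2 (adjusted p 0.84) and 0.39, and called, without Lhx2 cKO 1 (adjusted p 0.0142). Cyp51, the lanosterol demethylase, stood at 193 and 201 CPM in control and 214 and 240 CPM in Lhx2 cKO, with an adjusted p of 0.129. Fdft1, the squalene synthase, stood at 174 and 187 CPM in control and 201 and 212 CPM in Lhx2 cKO, with an adjusted p of 0.165. For both, the groups did not overlap but the difference did not pass the threshold. Ebp, the sterol isomerase, had the largest estimate of the enzymes, 0.26, with a 95% interval from -0.03 to 0.54. Lss, the cyclase that makes lanosterol, had the lowest estimate, -0.20, from 68.5 and 71.3 CPM in control to 60.8 and 61.0 CPM in Lhx2 cKO (adjusted p 0.156). Msmo1, Nsdhl, Hsd17b7 and Sc5d, which act on the methyl groups and double bonds of the sterol ring, lay between 0.02 and 0.13.

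Because a p that misses the threshold does not show that levels were alike, the intervals were read as well. For all 18 enzymes the 95% interval of the log2 fold change lay within a 1.5-fold change in either direction, the lowest bound being -0.40 (Lss) and the highest 0.54 (Ebp). Over all genes tested, 62.9% had such an interval. That share includes genes with few counts, whose intervals are wider, while every enzyme was at 15.04 CPM or more in each control library. Of the 18 enzymes, 5 had an unadjusted p under 0.05 in edgeR (Tm7sf2, Sqle, Dhcr7, Cyp51 and Lss), beside 32.0% of all genes tested. The count of called enzymes was also 0 in DESeq2 and in limma-voom, which called 16.3% and 20.7% of all genes. Summed over the 18 enzymes, the level was 1379 and 1498 CPM in control and 1505 and 1626 CPM in Lhx2 cKO, a mean 8.81% higher. The 7 early enzymes contributed 424 and 457 CPM in control against 437 and 453 CPM in Lhx2 cKO. The 11 late enzymes contributed 955 and 1042 CPM in control against 1068 and 1173 CPM in Lhx2 cKO.

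Some enzyme counts are uncertain because reads can be shared. By GENCODE M21, Acat2 has a near-identical neighbour, Acat3 (97.7% identity over 1477 bases), Idi1 and Fdft1 have copies elsewhere, Fdps shares 26.7% of its exon bases with Gm43738 on the same strand, and Fdft1 shares 18.3% with Ctsb on the other strand. Tm7sf2, the enzyme with the lowest adjusted p, shares 12.1% with Vps51 on the same strand, and Hmgcs1 shares 12.1% with Gm48342 on the other strand. None of the 8 called members had a copy at 95% identity over at least 300 bases, and Srebf1 was the only member among them whose exons overlapped another gene, by 1.93% with Rai1 and 1.17% with Mir6922.

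Promoters of the enzymes are shown here because these genes are textbook Srebp targets, whose promoters pair a sterol regulatory element with boxes bound by Nfy or Sp1. RefSeq promoters of build GRCm38.p6 (250 bases before to 50 after the start) matched 30 of the 37 members, with 44 promoters. The submitters' processing notes name mm39, another build, so the coordinates belong to the promoter table and not to the counts. A CCAAT box, searched on both strands, was in a promoter of 14 of the 15 matched enzymes, Acat2 being the exception, beside 41.1% of all genes in the table. It was in a promoter of 8 of the 15 other matched members. Genes with several starts have more chances to match, and counted over promoters the box was in 14 of 18 for the enzymes, 9 of 26 for the other members and 37.4% of all promoters. Some of these stretches are annotated exon in GENCODE M21. All 250 bases before the start are exon for Idi1, for Tm7sf2 and for the only start of Dhcr7 with a CCAAT box, and 214 are for Msmo1. The Sp1 box GGGCGG was in 15 of the 18 enzyme promoters, 14 of the 26 promoters of other members and 35.7% of all promoters. The sterol regulatory element TCACNCCAC was in 1.24% of all promoters and, among members, only in that of Hmgcs1. These are matches of letters, which say nothing of binding, and this search allowed no variant of the element.

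The following 250 bases before the start of Hmgcs1 (the only member with the sterol element), Mvd and Ebp (enzymes from either end of the pathway) are printed on the gene's own strand, with the sterol element and CCAAT boxes in capitals and Sp1 boxes left in lower case, the CCAAT box reading ATTGG where it lies on the opposite strand.
Hmgcs1, chr13:119690101-119690350, plus strand: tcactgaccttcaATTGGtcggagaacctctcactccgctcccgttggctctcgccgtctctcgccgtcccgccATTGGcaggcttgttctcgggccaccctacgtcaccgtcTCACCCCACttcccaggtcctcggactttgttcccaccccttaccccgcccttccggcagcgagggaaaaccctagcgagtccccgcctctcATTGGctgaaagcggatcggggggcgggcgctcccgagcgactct
Mvd, chr8:122443423-122443672, minus strand: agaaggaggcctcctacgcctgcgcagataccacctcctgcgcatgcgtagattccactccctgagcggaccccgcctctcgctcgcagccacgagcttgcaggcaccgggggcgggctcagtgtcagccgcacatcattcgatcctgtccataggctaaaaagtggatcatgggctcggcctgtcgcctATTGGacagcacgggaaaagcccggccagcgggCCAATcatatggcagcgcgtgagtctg
Ebp, chrX:8193513-8193762, minus strand: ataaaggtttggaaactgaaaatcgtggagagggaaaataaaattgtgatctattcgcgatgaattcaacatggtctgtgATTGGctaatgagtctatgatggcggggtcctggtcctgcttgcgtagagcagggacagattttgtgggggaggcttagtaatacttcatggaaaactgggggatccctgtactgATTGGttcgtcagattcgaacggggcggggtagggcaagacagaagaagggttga

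In Hmgcs1 the capital run TCACCCCAC is the sterol element, which starts 137 bases before the RefSeq start, with CCAAT boxes on both sides of it. The log2 fold change of the gene was 0.03. Mvd and Ebp hold 2 CCAAT boxes each and no sterol element in these letters, and their log2 fold changes were -0.002 and 0.26.

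**Figure D2:**
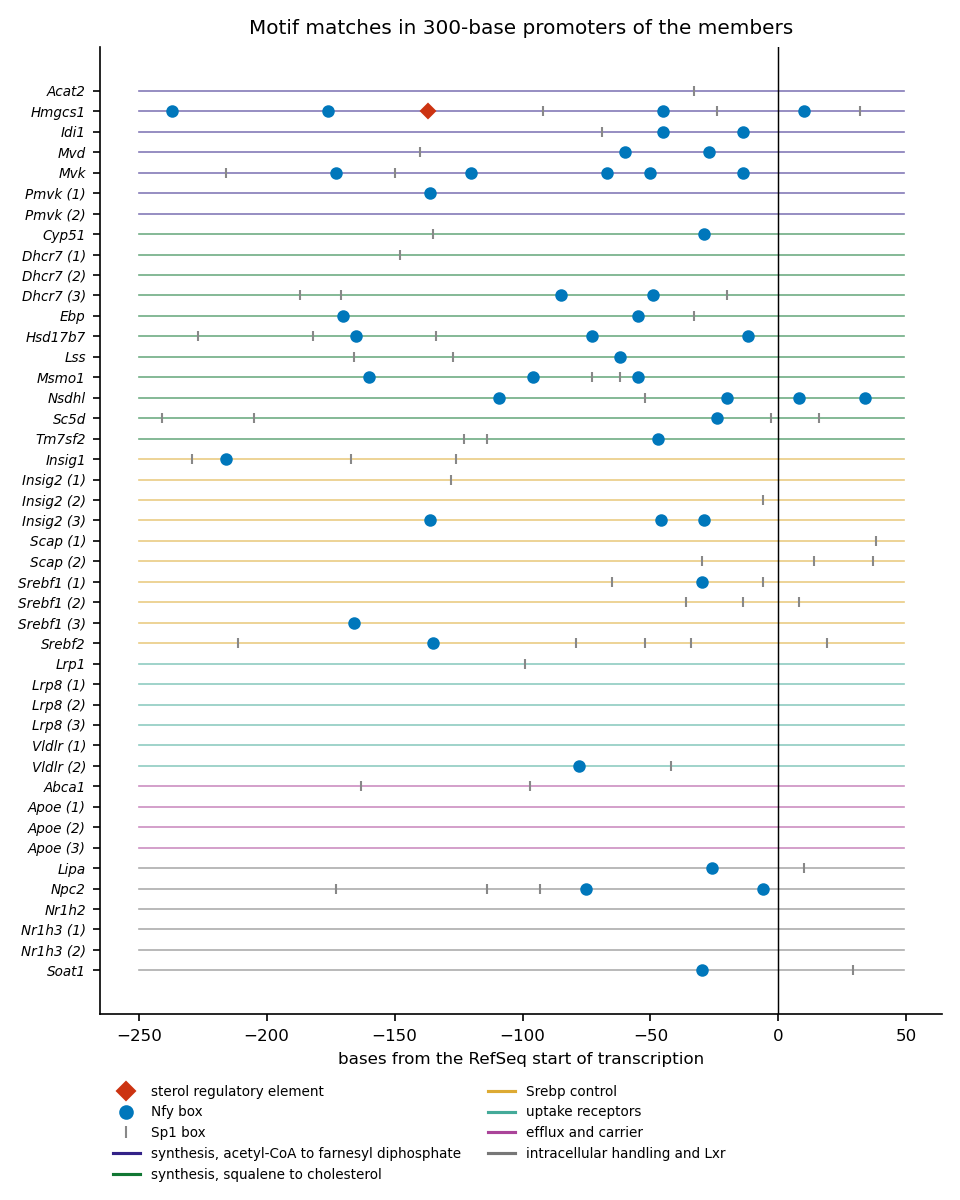
Positions of motif matches in the 44 RefSeq promoters of 30 members, by bases from the start of transcription, with 1 row per promoter (numbered where a gene has several), lines coloured by role. CCAAT boxes lie in a promoter of 14 of 15 enzymes and of 8 of the 15 other members shown, beside 41.1% of all genes with a promoter. The promoters of Apoe and Abca1 hold none, and those of Lipa and of the downstream start of Vldlr hold 1 each.

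Among the genes that control the sterol response, 2 of 5 fell and 0 rose. Srebf1, which encodes the Srebp1 factors that drive fatty acid synthesis, was at 151 and 147 CPM in control and at 105 and 112 CPM in Lhx2 cKO, with a wide gap between the groups. It fell by 0.46 on the log2 scale (SE 0.094, adjusted p 2.75e-04). Insig1, an anchor that retains the Scap complex and is itself a Srebp target, was at 85.2 and 98.4 CPM in control and at 70.01 and 76.7 CPM in Lhx2 cKO. The groups were separate but close, and Insig1 fell by 0.32 on the log2 scale (SE 0.1, adjusted p 0.0162). Its call was lost without control 2 (adjusted p 0.227) and without Lhx2 cKO 1 (adjusted p 0.14).

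Srebf2, which encodes the Srebp2 factor that drives the cholesterol enzymes, was at 513 and 474 CPM in control and at 472 and 530.5 CPM in Lhx2 cKO. The groups overlapped, with a log2 fold change of 0.02 and a 95% interval from -0.19 to 0.23. Scap stood at 152 and 153 CPM in control and 159 and 190 CPM in Lhx2 cKO (adjusted p 0.167), and Insig2, the second anchor, overlapped between groups at a log2 fold change of 0.09 (adjusted p 0.656). Per length, the level of Srebf2 was 2.66 and 2.52 times that of Srebf1 in the control libraries and 3.53 and 3.71 times in the Lhx2 cKO libraries. The level of Insig1 per length was 3.81 and 3.12 times that of Insig2 for the controls against 2.50 and 2.60 times for Lhx2 cKO. The 10 cell cycle markers, of which 9 fell, summed to 418 and 465 CPM in control and to 278 and 274 CPM in Lhx2 cKO, and the part of cell type or cell cycle in the falls of Srebf1, Insig1 and Nr1h2 was not tested.

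The uptake receptors did not move together: 1 of 3 rose and 0 fell. Vldlr, a lipoprotein receptor that in the cortex also receives reelin, was at 66.2 and 66.3 CPM in control and at 101 and 108 CPM in Lhx2 cKO. Both Lhx2 cKO libraries were far above both controls, and the log2 fold change was 0.66 with SE 0.097 (adjusted p 1.26e-06), the second largest rise among the members. Lrp8, the other receptor of Apoe and reelin, was at 549 and 587 CPM in control and at 485 and 483 CPM in Lhx2 cKO, so that its groups were separate in the opposite direction. Its log2 fold change of -0.23 did not pass the threshold in edgeR (SE 0.103, adjusted p 0.11), and it did in DESeq2 (adjusted p 0.0425). The level of Lrp8 per length was 6.57 and 7.03 times that of Vldlr in the control libraries and 3.79 and 3.54 times in the Lhx2 cKO libraries. Lrp1, the large endocytic receptor, was at 952 and 832 CPM in control and 877 and 936 CPM in Lhx2 cKO, with overlapping groups and a log2 fold change of 0.02 (95% interval from -0.20 to 0.25).

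Of the 4 efflux and carrier genes 3 were called higher and 0 lower, and Apoe had the largest change of all members. Apoe was at 117 and 97.6 CPM in control and at 313 and 374 CPM in Lhx2 cKO. The lowest Lhx2 cKO library was far above the highest control, and the log2 fold change was 1.68 with SE 0.106 (adjusted p 5.58e-16). The control mean was 107 ± 13.7 CPM (SD, n = 2), against an Lhx2 cKO mean of 343 ± 43.6 CPM (SD, n = 2). Per length Apoe had rank 3 of the members in control, at 54.7 and 45.7 CPM per kilobase, and rank 1 in Lhx2 cKO, at 146 and 175 CPM per kilobase. Abca1, the exporter that loads lipid onto Apoe, was at 49.2 and 51.8 CPM in control and at 65.1 and 78.2 CPM in Lhx2 cKO, with a log2 fold change of 0.50 with SE 0.103 (adjusted p 3.09e-04). Abcg1, which passes sterol to particles that already hold lipid, was at 21.8 and 23.1 CPM in control and at 32.9 and 32.2 CPM in Lhx2 cKO. Its log2 fold change was 0.54 with SE 0.117 (adjusted p 6.52e-04).

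The exporters had estimates close to each other, and their ratio per length, Abca1 over Abcg1, was 1.59 and 1.58 for the controls against 1.39 and 1.71 for Lhx2 cKO, with overlapping groups. The ratio of Apoe to Abca1 per length was 11.5 and 9.13 for the controls against 23.3 and 23.2 for Lhx2 cKO. Abcg4, the neural relative of Abcg1, was at 43.8 and 43.97 CPM in control and at 49.2 and 52.9 CPM in Lhx2 cKO, and its log2 fold change of 0.22 did not pass the threshold (SE 0.102, adjusted p 0.128). The sum of the 4 genes was 232 and 216 CPM in control and 460 and 538 CPM in Lhx2 cKO. Apoe gave 117 and 97.6 CPM of it in control and 313 and 374 CPM in Lhx2 cKO.

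**Figure D3:**
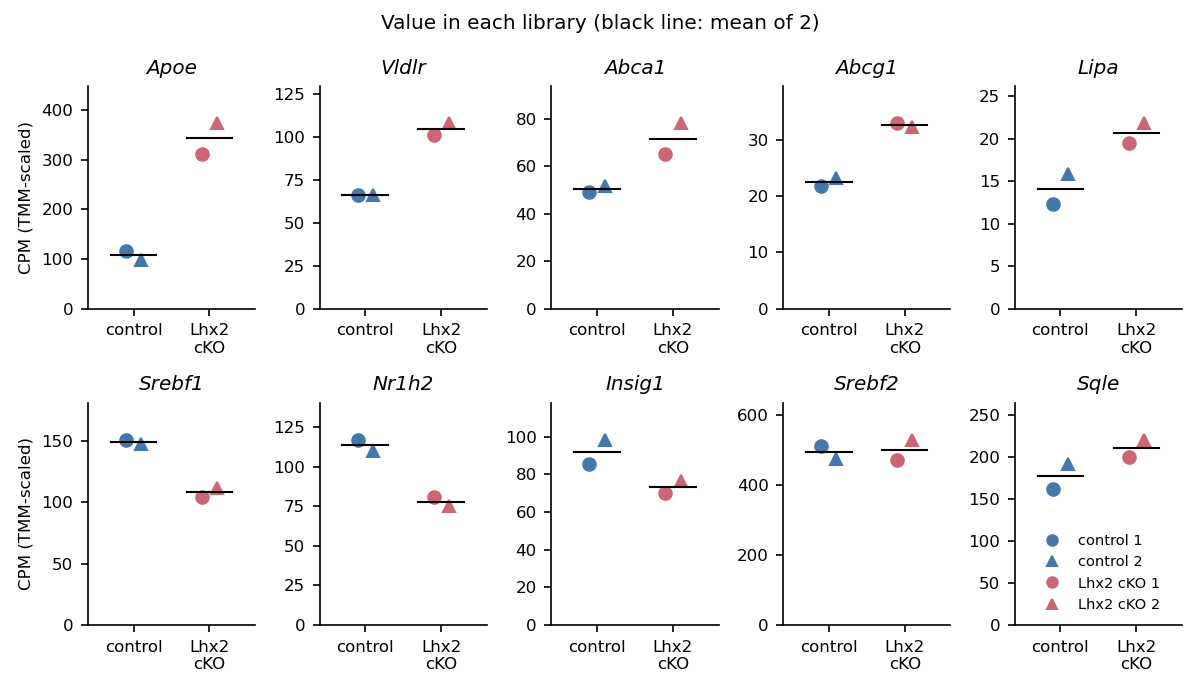
CPM in each library, from an axis that starts at 0, for the 8 called members and for Srebf2 and Sqle; circles are replicate 1, triangles replicate 2 and black lines the mean of 2. The groups are apart for the 8 called members and for Sqle and overlap for Srebf2.

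Of the 5 members that rose, Apoe, Vldlr, Lipa and Abca1 had a RefSeq promoter in the table, and these are shown beside those of the enzymes. For Apoe and Vldlr the most upstream of several RefSeq starts is given, and the counts do not tell which start was used. The stretch of Lipa holds 1 CCAAT box, in capitals as ATTGG, and those of Apoe, Vldlr and Abca1 hold none in the letters searched. None of these stretches holds the sterol element, and Abca1 has 2 Sp1 boxes here. The downstream start of Vldlr has 1 CCAAT box.
Apoe, chr7:19699189-19699438, minus strand: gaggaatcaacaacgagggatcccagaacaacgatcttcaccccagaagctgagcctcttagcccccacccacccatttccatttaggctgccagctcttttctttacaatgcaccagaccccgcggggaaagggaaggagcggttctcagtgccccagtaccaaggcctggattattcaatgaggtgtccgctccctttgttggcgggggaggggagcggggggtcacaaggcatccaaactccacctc
Vldlr, chr19:27216234-27216483, plus strand: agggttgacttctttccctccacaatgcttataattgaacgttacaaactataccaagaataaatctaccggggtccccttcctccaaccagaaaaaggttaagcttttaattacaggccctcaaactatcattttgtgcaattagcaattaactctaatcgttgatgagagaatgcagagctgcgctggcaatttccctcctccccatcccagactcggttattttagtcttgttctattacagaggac
Lipa, chr19:34527475-34527724, minus strand: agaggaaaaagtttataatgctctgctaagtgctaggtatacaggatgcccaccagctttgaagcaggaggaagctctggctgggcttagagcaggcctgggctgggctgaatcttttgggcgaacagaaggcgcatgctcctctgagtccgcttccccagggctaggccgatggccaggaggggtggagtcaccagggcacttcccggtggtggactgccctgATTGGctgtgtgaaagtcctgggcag
Abca1, chr4:53159896-53160145, minus strand: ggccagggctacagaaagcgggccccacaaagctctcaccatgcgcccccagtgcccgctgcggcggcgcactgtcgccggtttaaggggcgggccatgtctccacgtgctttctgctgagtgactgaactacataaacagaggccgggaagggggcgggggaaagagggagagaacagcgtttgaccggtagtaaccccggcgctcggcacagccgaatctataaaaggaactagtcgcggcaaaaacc

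Markers of glia and microglia, the cells known to make Apoe, were higher in the same libraries. The 12 microglia and macrophage markers summed to 141 and 144 CPM in control and 297 and 323 CPM in Lhx2 cKO, with 11 called higher, and none of them was at 0 in any library. The 9 astrocyte and late glia markers tested summed to 281 and 345 CPM in control and 693 and 726 CPM in Lhx2 cKO, with 7 called higher. Most of this sum came from Tnc and Sparcl1. Tnc was at 106 and 127 CPM in control and 342 and 346 CPM in Lhx2 cKO, and Sparcl1 at 95.3 and 132 CPM against 218 and 250 CPM. Aldoc and Gja1 of the same list were not called, with log2 fold changes of 0.09 and 0.08. The 10 radial glia markers, of the parent cells of cortical glia, summed to 837 and 885 CPM in control and 805 and 781 CPM in Lhx2 cKO, with 1 called higher and 4 lower. The 6 oligodendrocyte precursor markers summed to 46.9 and 53.6 CPM in control and 87.9 and 96.5 CPM in Lhx2 cKO. The 9 endothelium and pericyte markers summed to 247 and 283 CPM in control and 313 and 352 CPM in Lhx2 cKO. In bulk tissue more or fewer cells of a type and more or less RNA per cell cannot be told apart, and the part of these cell types in the changes of Apoe, Abca1, Abcg1, Vldlr and Lipa was not tested.

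**Figure D4:**
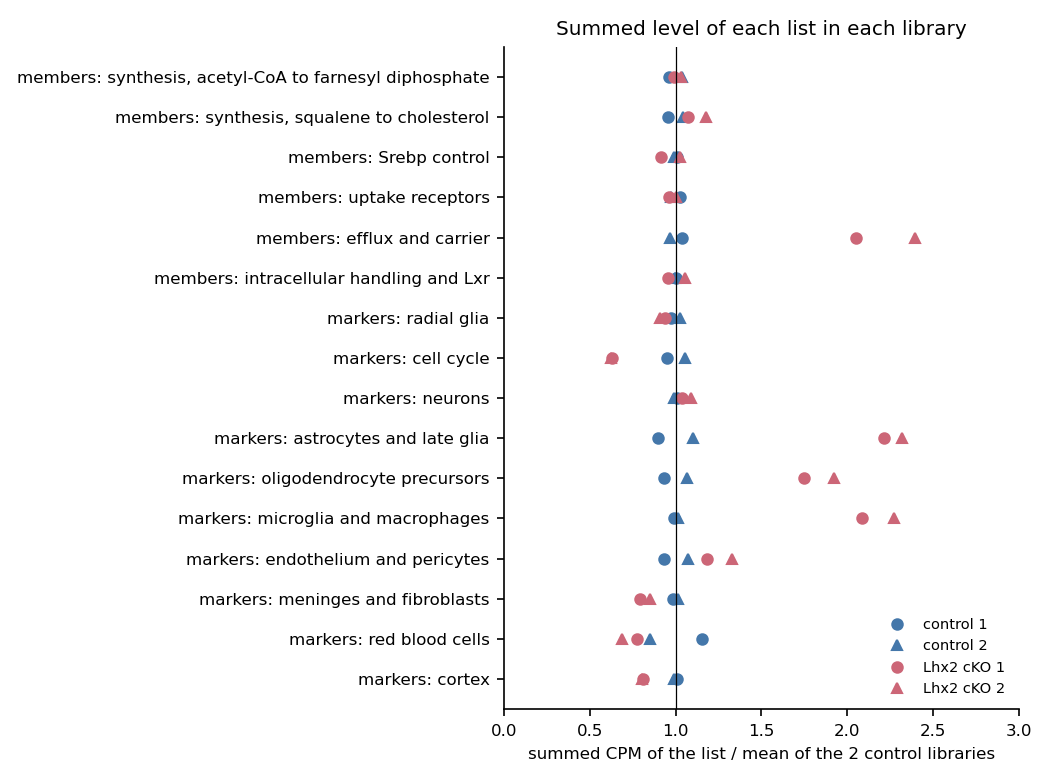
Summed CPM of each list in each library, divided by the mean of the 2 control libraries, for the 6 roles of members and the 10 marker lists; blue is control and red Lhx2 cKO. The sum of the efflux and carrier genes (460 and 538 CPM in Lhx2 cKO, of which Apoe is 313 and 374) lies near those of the microglia and astrocyte lists. Gene by gene, the fold was 3.2 for Apoe, 1.42 for Abca1, 1.45 for Abcg1 and 1.16 for Abcg4, and the part of cell types was not tested. The sum of the enzymes from squalene to cholesterol was a mean 12.2% higher in Lhx2 cKO. The sums of the remaining roles stay near 1, though within them Vldlr and Lipa rose and Srebf1, Insig1 and Nr1h2 fell.

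Of the 7 genes for intracellular handling and oxysterol sensing, Lipa rose, Nr1h2 fell, and 5 were not called. Nr1h2, which encodes the widely expressed receptor Lxr beta, was at 117 and 110 CPM in control and at 80.9 and 75.0 CPM in Lhx2 cKO. It fell by 0.54 on the log2 scale (SE 0.097, adjusted p 4.04e-05). Of the known targets of the Lxr receptors among the members, Abca1, Abcg1 and Apoe rose and Srebf1 fell. Nr1h3, which encodes Lxr alpha, was the least abundant member, with 58 and 70 counts in control and 59 and 43 counts in Lhx2 cKO. Its log2 fold change of -0.22 had a 95% interval from -0.91 to 0.48, so a change of the size seen for Nr1h2 was not detectable at this depth. Per length, Nr1h2 was 36.7 and 29.4 times Nr1h3 in the control libraries and 23.4 and 30.1 times in the Lhx2 cKO libraries.

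Lipa, the lysosomal acid lipase that frees cholesterol from its esters, was at 12.4 and 15.8 CPM in control and at 19.5 and 21.9 CPM in Lhx2 cKO. It rose by 0.55 on the log2 scale (SE 0.146, adjusted p 0.00514). That call was lost without control 1 (0.37, adjusted p 0.162) and without Lhx2 cKO 2 (0.46, adjusted p 0.0724). Npc1 and Npc2, the pair that moves freed cholesterol out of the lysosome, were not called: Npc2 was at 242 and 239 CPM in control and 248 and 290 CPM in Lhx2 cKO (log2 fold change 0.16), and Npc1 was at 40.3 and 42.2 CPM in control and 42.9 and 44.9 CPM in Lhx2 cKO (0.09). Soat1, which makes the esters for storage, had a log2 fold change of 0.13 and an adjusted p of 0.483. Stard4, a sterol carrier of the cytosol and a known Srebp target, was at 14.9 and 17.1 CPM in control and 12.3 and 14.4 CPM in Lhx2 cKO, a log2 fold change of -0.27 that did not pass the threshold (adjusted p 0.229).

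Levels per length spanned from 68.7 CPM per kilobase for Srebf2 to 1.03 for Nr1h3 in the control mean. Srebf2 was followed in control by Lrp1 (50.4), Apoe (50.2), Lrp8 (44.8), Cyp51 (44.6), Npc2 (44.2), Fdft1 (43.96) and Hmgcs1 (43.8), and the libraries of neighbours from Lrp1 to Hmgcs1 overlapped. In Lhx2 cKO, Apoe (161) stood above Srebf2 (69.8) and Cyp51 (51.5) with no overlap. Vldlr moved from rank 27 of 37 to rank 23, and Lrp8 from rank 4 to rank 9. How the deposited lengths were derived is not given in the sources used here, which limits how closely levels of different genes can be compared.

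**Figure D5:**
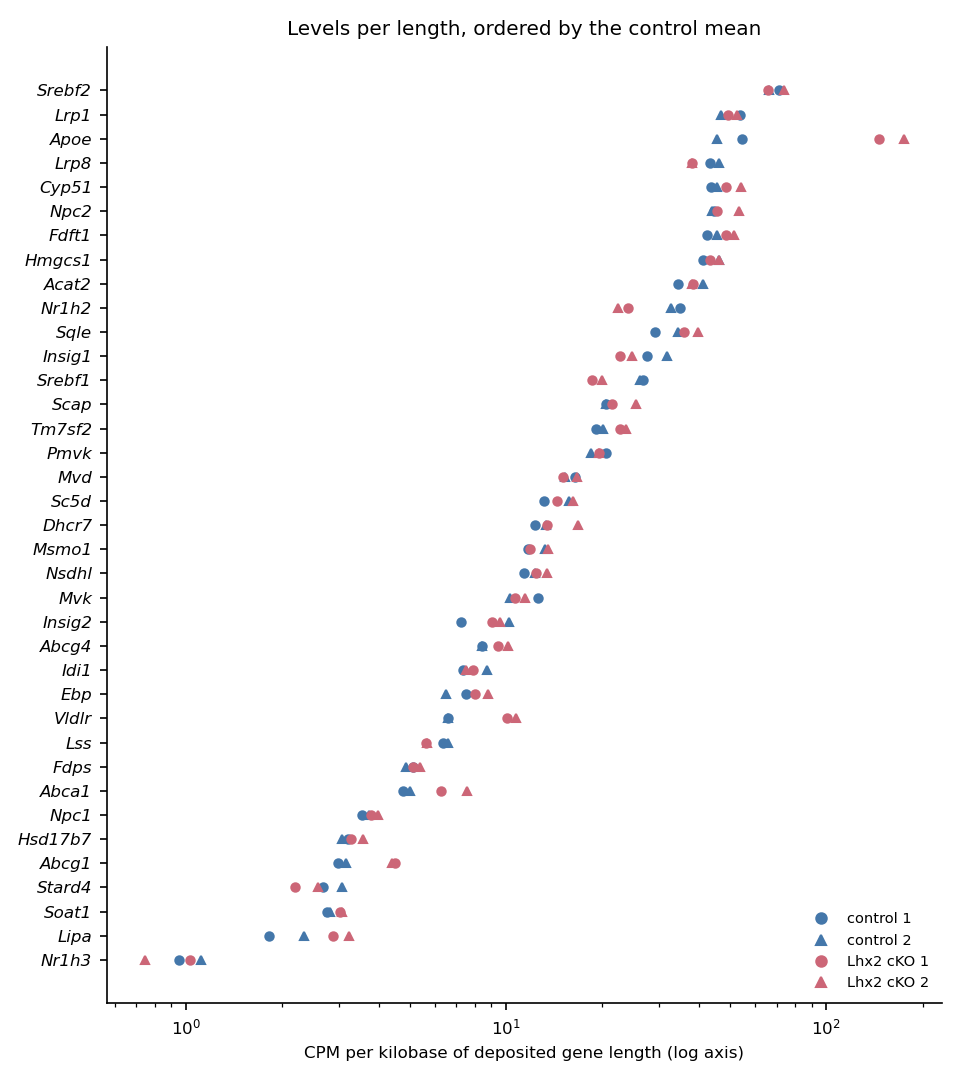
CPM per kilobase of deposited gene length, on a log axis, for each member in each library, ordered by the control mean; blue is control, red Lhx2 cKO, circles replicate 1 and triangles replicate 2. Apoe has rank 3 in control and rank 1 in Lhx2 cKO (146 and 175 CPM per kilobase), and the synthesis enzymes keep close to their control levels.

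Other genes of the pathway were taken from 5 lists of 78 genes, of which 73 were tested: 14 were called higher and 4 lower. Over all genes tested, 11.6% were called higher and 9.17% lower, and the counts per list are read only against these shares. In sterol synthesis and turnover, 2 of 8 tested genes were higher and 0 lower: Pgrmc1, a heme-binding partner of Cyp51, at 0.46 (adjusted p 9.41e-04; 0.0581 without Lhx2 cKO 2), and Erg28, a scaffold of the late enzymes, at 0.28 (adjusted p 0.0408). Erg28 was not called in DESeq2 (0.0904), with library totals (0.076), or without control 1 (0.0898), control 2 (0.188) or Lhx2 cKO 2 (0.311). Among other control genes of the Srebp system 2 of 10 were higher and 0 lower, with the ubiquitin ligase Rnf145 at 0.39 (adjusted p 0.00319). Rnf145 lost its call without control 1 (adjusted p 0.066) or Lhx2 cKO 2 (adjusted p 0.104).

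Of 20 other lipoprotein and receptor genes tested, 3 were higher and 3 lower. Sorl1, a sorting receptor that binds Apoe, was at 299.6 and 299.6 CPM in control and at 106 and 113 CPM in Lhx2 cKO, a fall of 1.45 on the log2 scale (SE 0.097, adjusted p 2.97e-15). Apod, a lipocalin carrier, was at 11.3 and 18.2 CPM in control and 40.3 and 44.2 CPM in Lhx2 cKO (log2 fold change 1.52, adjusted p 2.92e-11), and Clu, also called apolipoprotein J, was at 0.61 (adjusted p 3.90e-05). Lrp5, a Wnt coreceptor of the same receptor family, was at -0.53 (adjusted p 1.31e-04).

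In sterol transport 6 of 21 tested genes were higher and 1 lower. Gramd1b, which carries cholesterol from the plasma membrane to the endoplasmic reticulum, was at 128 and 139 CPM in control and 193 and 187 CPM in Lhx2 cKO (log2 fold change 0.51, adjusted p 7.69e-05). Nceh1, which splits cholesterol esters, had the largest rise of the list at 1.03 (adjusted p 8.92e-04), from 3.13 and 4.96 CPM to 7.56 and 8.97 CPM. Stard3nl, a protein of contacts between endosome and endoplasmic reticulum, was at 0.42 (adjusted p 0.00173), and Abca7, a lipid transporter, was at -0.42 (adjusted p 0.00171) and lost its call without Lhx2 cKO 2 (0.0645). Of 14 genes of fatty acid synthesis under Srebp1 and Lxr, 1 was higher and 0 lower: Me1, which supplies NADPH, at 0.51 (adjusted p 0.0297; 0.0777 in DESeq2). Its call was also lost without control 1 (0.173), control 2 (0.0594) or Lhx2 cKO 2 (0.213). The median log2 fold change of those 14 was 0.12, while Srebf1 fell by 0.46.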

How the data were processed

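The authors deposited raw read counts for each gene in 4 libraries of polyadenylated RNA; the submitters' processing notes name Trim Galore, Subread, featureCounts, edgeR and the build mm39, without role or order. Use of strand is not given in the sources used here. The lowest row total was 102 counts, so genes of low count were absent from these rows. The authors' log2 fold change, log2 CPM, p-value, adjusted p-value and -log10 columns were deposited in the same table, and only their log2 fold changes and adjusted p-values were compared. Gene length in bases is the deposited one, with no annotation stated.

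Counts were tested with edgeR 4.0.16 in R 4.3.3 (TMM, filterByExpr with a minimum of 10 counts, glmQLFit and glmQLFTest, two-sided, no covariates, all 4 libraries), adjusted by Benjamini-Hochberg over 13288 genes; 1 gene was filtered out. Standard errors are the absolute log2 fold change over the square root of F, and 95% intervals use the t quantile. At this depth 3 counts are 0.122 to 0.135 CPM, a limit for counting error only. The procedure was run on counts simulated with the same spread for all genes and with few genes changed. These settings differ from the data, so that run checks the code only. Replicate pairs were distinct libraries (chi-square over degrees of freedom 13.9 in control and 14.3 in Lhx2 cKO). Motifs were searched in RefSeq promoters (GRCm38.p6), exon overlaps and copies in GENCODE M21. The members and lists were chosen with earlier results of these data known. By rule, called members whose log2 fold change reached 0.3 in size, Srebf2, Srebf1, Insig1, Sqle, Apoe and Abca1 had each library's value printed, and up to 4 called genes per other list were named by smallest p. Library values of other members were added after they were seen. Alternatives were other scalings and filters, mitochondrial genes left out, DESeq2 1.42.0, limma-voom (3.58.1), the replicate number as a block, a threshold of 0.01 and each library left out. Some results are not reported here.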

Additional observations from a re-analysis of the deposited data

How the results depend on the processing

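The 8 called members kept their direction under all alternatives run, and 34 of the 37 members kept their side of the threshold under the 10 that used all libraries. The exceptions were Insig1 at a threshold of 0.01, Lrp8 in DESeq2 and Sqle with the replicate block, where 1 enzyme was called. The labels do not say whether libraries with the same replicate number share a litter or preparation. The correlation across genes of their deviations was 0.001, which cannot settle this with 1 difference per group. The block, which called 2874 genes against 2758 without it, changed no other call among the members. At a threshold of 0.01, 1697 genes were called, fewer by construction. Of the 29 uncalled members 11 changed sign somewhere, all with a log2 fold change under 0.1. Among scalings the shift of the median over all genes was largest with library totals, at -0.0105. With each library left out in turn, the lone library of a group was assumed to vary like the others. Called genes then numbered 1633 to 2396, called enzymes 0 to 1, and the medians ranged from -0.146 to 0.104 for the Srebp control genes and from 0.039 to 0.125 for intracellular handling and Lxr. The causes were not tested. Among the other genes named, Erg28 lost its call with library totals and in DESeq2, and Me1 in DESeq2. Lhx2 kept its call in 1 of the 4 fits with a library left out (without control 2), and its highest adjusted p was 0.176. A 1.5-fold change is 0.585 on the log2 scale, beside an SE of 0.343 for Nr1h3. With 2 libraries a group, changes of 1.5-fold or less in genes as low as Nr1h3 were therefore unlikely to be called.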
